A study of Mus musculus with 8 samples.

Results

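Genes of Wnt, BMP, TGF-beta and Hedgehog signalling were described in astrocyte cultures from Spp1 knockout mice, set against wild-type cultures. The genes were chosen by their symbols alone: a gene was a member when its name began with that of a ligand, receptor, inhibitor or effector of these pathways. In the authors' deposited table of changed genes, 53 of 3624 genes were members. The same rule matched 140 protein-coding genes of the GENCODE M21 annotation, so 37.9% of the matching genes were listed, beside 16.0% of all 21992 annotated protein-coding genes. Both shares are over annotated genes, and how many of the 140 were tested is unknown. The other matching genes, among them Tgfb1, Tgfb2, Tgfb3, Smad1 to Smad5, Id1 to Id3, Gli1 to Gli3, Axin2, Ptch1 and Lef1, have no value here, and their absence was not read as no change.

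RNA was sequenced from 4 samples labelled Spp1 KO, of genotype Spp1-/- and strain B6.129S6(Cg)-Spp1tm1Blh/J, and 4 samples labelled wild type, of strain C57BL/6. All were primary astrocytes from retinas and optic nerves of mice at postnatal day 1 to 3, cultured in DMEM/F12 containing 10% fetal bovine serum. The strain name denotes a targeted allele of Spp1, which encodes the secreted matrix protein osteopontin, made in 129S6 cells and carried on a C57BL/6 background. The labels give no sex, litter or pooling, nor any statement that replicates were separate cultures, so the authors' p-values measure only a spread between samples that may be technical.

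The table gave 1 value per gene for the comparison and 0 columns of per-sample values, so the spread between samples enters only through the deposited standard error (SE), and sequencing depth per sample is unknown. No adjusted p-value exceeded 0.0499 and no log2 fold change was smaller in size than 0.58, so each listed gene had passed both limits. About 16600 genes were estimated to have been tested, of which the 3624 listed genes are 21.8%. The direction was taken as knockout over wild type since Spp1 was negative, with a log2 fold change of -5.90 (SE 0.11) in the authors' deposited table. Group levels below are implied means: the normalized count in each genotype worked out from the deposited mean over all samples and the fold change, for groups of equal size.

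Wnt proteins are secreted lipid-modified ligands that bind Frizzled receptors, and in the canonical branch this stabilises beta-catenin. R-spondins acting through Lgr receptors raise the number of Frizzled receptors at the surface, while secreted frizzled-related proteins and Notum hold the pathway down. BMPs, activins and TGF-betas signal through paired serine/threonine kinase receptors to Smad proteins, with gremlins, follistatins and chordin-like proteins binding the ligands outside the cell. In the developing optic nerve, Sonic hedgehog from retinal ganglion cells is known to drive astrocyte proliferation, and BMP signalling is known to promote astrocyte differentiation.

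Of the 53 listed members, 22 were higher and 31 lower in Spp1 KO cultures, so 58.5% were lower, where 45.1% of all listed genes were lower and 54.9% higher. The median log2 fold change of the members was -0.77, beside 0.66 over all listed genes. With no listed change smaller in size than 0.58, each median falls on the side of its larger share by construction. A mean weighted by the inverse squared SE put the members at 0.13 and all listed genes at 0.22. The sign of the summary therefore differed between the median and the weighted mean, and no unweighted mean was taken to separate the weighting from the statistic. A log2 change of 1 or more in size was reached by 38 members, 16 higher and 22 lower, beside 58.0% of all listed genes. By pathway, the authors' deposited table held 8 higher and 15 lower Wnt genes and 12 higher and 12 lower TGF-beta and BMP genes, with 1 higher and 3 lower genes that the rule matched only by name.

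The 3 TGF-beta receptors were all listed and all higher in Spp1 KO cultures. Tgfbr1, the type I receptor kinase, had an implied mean of 2393 normalized counts in Spp1 KO and 955 in wild type, a 2.51-fold rise (95% interval 1.97 to 3.19) in the authors' deposited table. Tgfbr2, the type II receptor that binds the ligand and activates the type I kinase, stood at 5536 in Spp1 KO and 3171 in wild type, a 1.75-fold rise (1.51 to 2.02) by the authors' deposited table. Betaglycan, the co-receptor encoded by Tgfbr3 that presents TGF-beta to the kinase receptors, stood at 1311 in Spp1 KO and 396 in wild type, a 3.31-fold rise (2.65 to 4.13) from the authors' deposited table. Tgfbr3l, which encodes a betaglycan-like protein, rose by 1.14 on the log2 scale (SE 0.43) from low counts, with implied means of 43.5 in Spp1 KO and 19.8 in wild type in the authors' deposited table. Acvr1c, the type I receptor ALK7 for nodal and some activins, was lower at -4.83 (SE 1.76) in the authors' deposited table, but its implied means of 0.196 in Spp1 KO and 5.59 in wild type lie near 0 and its fold had an interval of 2.61 to 311.

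Upstream sequence is shown for both kinase receptors, for Id4 and Smad6, which BMP signalling is known to induce in some cells, and for Grem1, a BMP antagonist, because these genes moved in different directions within the same pathway. The 250 bases before the RefSeq gene start (GRCm38.p6) are given 5′ to 3′ on the gene's strand, and capitals mark GGCGCC, a palindrome at the core of the BMP-responsive element of the Id1 promoter. The windows are chr4:47352972-47353221 (+) for Tgfbr1, chr9:116175364-116175613 (-) for Tgfbr2, chr13:48260866-48261115 (+) for Id4, chr9:64022060-64022309 (-) for Smad6 and chr2:113758649-113758898 (-) for Grem1, and none of them overlaps an exon annotated in GENCODE M21.
Tgfbr1: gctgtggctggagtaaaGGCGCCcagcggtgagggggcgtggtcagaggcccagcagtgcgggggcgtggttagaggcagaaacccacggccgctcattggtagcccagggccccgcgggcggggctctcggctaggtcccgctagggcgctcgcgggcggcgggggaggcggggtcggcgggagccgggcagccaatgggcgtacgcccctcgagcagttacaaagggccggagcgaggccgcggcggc
Tgfbr2: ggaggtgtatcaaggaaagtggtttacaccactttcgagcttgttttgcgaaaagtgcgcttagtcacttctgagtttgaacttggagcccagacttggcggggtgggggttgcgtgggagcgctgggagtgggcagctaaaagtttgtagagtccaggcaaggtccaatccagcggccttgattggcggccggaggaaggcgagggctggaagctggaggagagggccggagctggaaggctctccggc
Id4: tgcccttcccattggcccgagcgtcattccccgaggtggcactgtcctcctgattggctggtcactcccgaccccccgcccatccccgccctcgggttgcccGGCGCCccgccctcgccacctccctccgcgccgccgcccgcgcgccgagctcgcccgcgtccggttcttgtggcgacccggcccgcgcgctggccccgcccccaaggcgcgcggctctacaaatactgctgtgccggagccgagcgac
Smad6: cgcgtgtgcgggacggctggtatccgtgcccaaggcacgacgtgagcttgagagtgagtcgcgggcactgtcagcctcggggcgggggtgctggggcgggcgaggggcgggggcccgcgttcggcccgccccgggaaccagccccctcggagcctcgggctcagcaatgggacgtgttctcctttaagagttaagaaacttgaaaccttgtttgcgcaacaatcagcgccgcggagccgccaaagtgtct
Grem1: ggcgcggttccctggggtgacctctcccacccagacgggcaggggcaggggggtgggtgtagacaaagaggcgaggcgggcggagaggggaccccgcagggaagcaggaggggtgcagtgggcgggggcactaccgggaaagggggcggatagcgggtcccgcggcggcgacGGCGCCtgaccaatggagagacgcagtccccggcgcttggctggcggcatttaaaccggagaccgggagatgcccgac
The palindrome was present once each before Tgfbr1 and Id4, which rose, and Grem1, which fell, and was not found in the windows of Tgfbr2, which rose, and Smad6, which fell. Among 40 RefSeq windows for 33 members, 12 held GGCGCC (30.0%), beside 3149 of 32851 windows of all genes (9.59%). Unlike the windows shown, those of Wnt2b, Wnt4, Fzd10, Fzd9, Wnt2, Tgfbi and Ptchd1, which held it, overlap an annotated exon. The member windows were richer in G and C, with a median GC content of 66.8% against 52.4% over all windows. Among windows with at least 60% GC the shares were 48.0% for members and 26.1% for all genes. That floor does not match GC content, which reached 85.2% in the window of Wnt4, so these shares are not at equal GC. The TCF/LEF words CTTTGAT and CTTTGAA, searched on both strands, were found in 2 of the 40 member windows and 7.48% of all windows. The Smad palindrome GTCTAGAC (0.167% of all windows) and the Gli word GACCACCC (0.703%), also searched on both strands, were found in 0 of 40. These matches describe letters in a window and do not show that a factor binds there.

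Of the 10 listed ligand genes of the TGF-beta family, 5 were higher and 5 lower. All 4 listed BMP genes were higher in Spp1 KO cultures, both listed activin subunit genes were lower, and of the 4 listed Gdf genes 1 was higher and 3 were lower. Bmp6 had implied means of 4909 in Spp1 KO and 2791 in wild type, a 1.76-fold rise (95% interval 1.41 to 2.19) worked out from the authors' deposited table. Bmp7, which like Bmp6 signals through BMP type I receptors, stood at 618 in Spp1 KO and 308 in wild type, a rise with a 95% interval of 1.63-fold to 2.46-fold by the authors' deposited table. Bmp5, of the same subgroup, and Bmp3, a divergent member that can oppose other BMPs, rose by 0.80 (SE 0.30) and 1.62 (SE 0.58) on the log2 scale in the authors' deposited table, both at mean normalized counts below 100.

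Inhba and Inhbb encode the beta subunits that form activins A and B. Inhba stood at 824 in Spp1 KO and 1745 in wild type, with a log2 fold change of -1.08 (SE 0.21) in the authors' deposited table. Inhbb stood at 430 in Spp1 KO and 1011 in wild type, with -1.23 (SE 0.16) in the authors' deposited table. Both intervals of fold lay between 1.58 and 2.91 toward lower levels. Gdf6, a BMP-related ligand needed for eye development, fell furthest of the TGF-beta family ligands, with 54.2 in Spp1 KO and 419 in wild type, a 7.73-fold lower level (95% interval 5.61 to 10.6) from the authors' deposited table. Gdf15, a ligand induced by cell stress, fell by 2.26 (SE 0.38) and Gdf10 fell by 0.83 (SE 0.23) on the log2 scale in the authors' deposited table. Gdf3, which is known from early embryos, was the higher one at 2.92 (SE 0.63) in the authors' deposited table, with implied means of 36.7 in Spp1 KO and 4.84 in wild type.

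**Figure D1:**
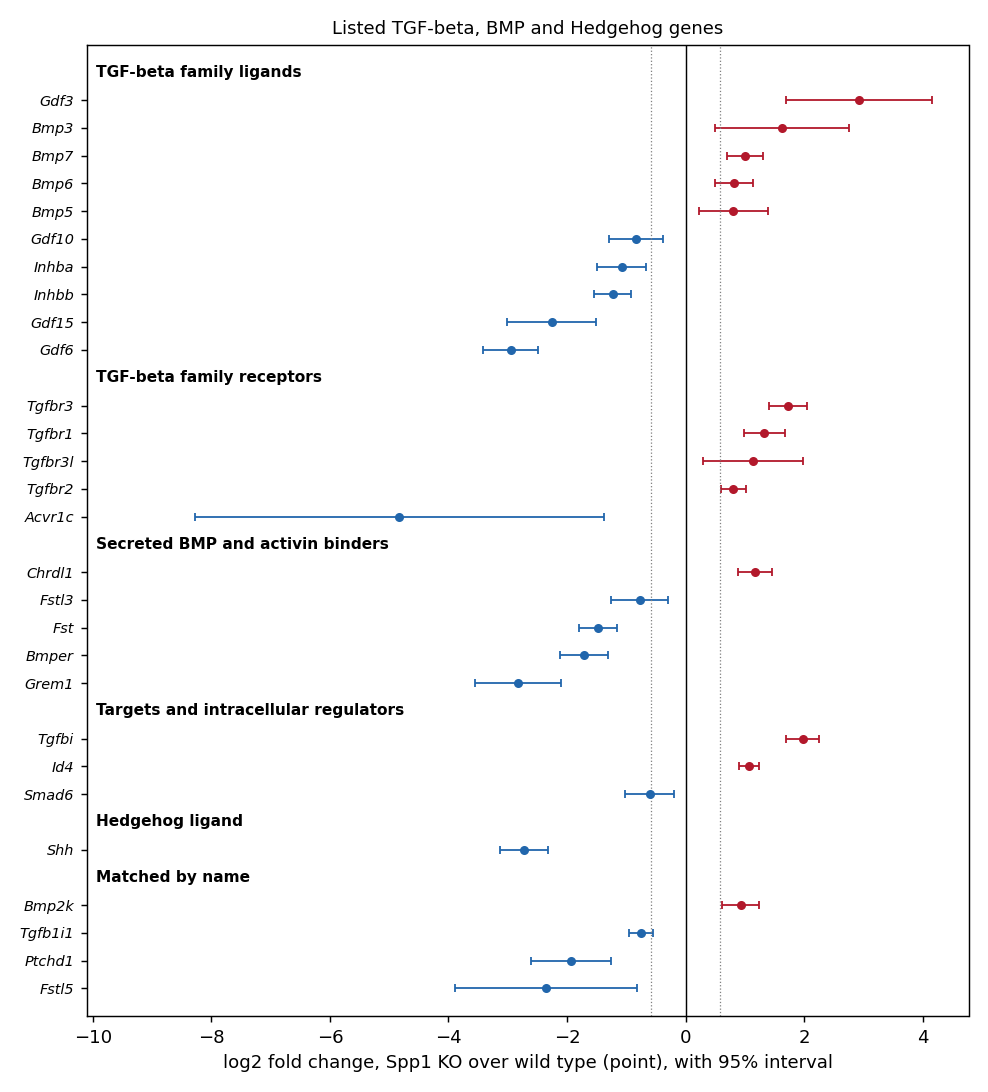
Log2 fold change of Spp1 KO over wild type for 28 listed TGF-beta, BMP and Hedgehog genes and genes matched by name, grouped by role. Points are the authors' deposited values, bars their 95% intervals, dotted lines the limit of 0.58 in either direction. The listed genes Bmp3, Bmp5, Bmp6 and Bmp7 and the 3 TGF-beta receptors lie to the right of 0 (higher in Spp1 KO). The BMP-related Gdf6 and 4 of the 5 secreted binders drawn lie to the left.

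Secreted proteins that bind BMPs and activins were mostly lower in Spp1 KO cultures, 5 of 6 listed genes (median log2 fold change -1.60). Grem1, a gremlin gene whose product sequesters BMPs, had implied means of 13.3 in Spp1 KO and 94.5 in wild type, a log2 fold change of -2.83 (SE 0.37), in the authors' deposited table. Fst, the follistatin gene whose product neutralises activins, stood at 215 in Spp1 KO and 598 in wild type, a 2.79-fold lower level (95% interval 2.22 to 3.49) by the authors' deposited table. Its relative Fstl3 stood at 151 in Spp1 KO and 259 in wild type, with -0.78 (SE 0.24) in the authors' deposited table, so the activin subunits and both activin binders were lower together. Bmper, a BMP-binding regulator related to crossveinless-2, stood at 124 in Spp1 KO and 407 in wild type, with -1.72 (SE 0.21) in the authors' deposited table. Chrdl1, a chordin-like BMP antagonist known to be secreted by astrocytes, was the exception, with 3320 in Spp1 KO and 1473 in wild type, a 2.25-fold rise (1.85 to 2.75) from the authors' deposited table.

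Genes downstream of the receptors did not share a direction. Tgfbi, a matrix protein gene induced by TGF-beta, had the highest absolute Wald statistic of the members and implied means of 6584 in Spp1 KO and 1673 in wild type, a 3.94-fold rise (95% interval 3.25 to 4.77) in the authors' deposited table. Id4, a helix-loop-helix inhibitor of differentiation factors in neural precursors, stood at 3507 in Spp1 KO and 1674 in wild type, a 2.09-fold rise (1.86 to 2.36) by the authors' deposited table. Smad6, an inhibitory Smad that BMP signalling induces, was lower, with 591 in Spp1 KO and 901 in wild type and a log2 fold change of -0.61 (SE 0.21) in the authors' deposited table. Its value lay close to the 0.58 limit of the table.

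Further genes of the TGF-beta and BMP pathways, from a list of 58 that the name rule does not cover, were listed in 16 cases. Of these, 4 were higher and 12 lower (median log2 fold change -0.88), where 45.1% of all listed genes were lower. Of the estimated tested genes, 21.8% were listed. Ccn2 and Thbs1, which encode a matricellular growth factor and a thrombospondin that activates latent TGF-beta, and which TGF-beta is known to induce, were lower in Spp1 KO cultures while Tgfbi was higher. Their log2 fold changes were -1.57 (SE 0.11) and -1.37 (SE 0.14) in the authors' deposited table. Genes of microfibrils and of latent TGF-beta binding proteins were lower too: Ltbp2, Ltbp1 and Fbn1 stood at -1.27 (SE 0.11), -1.12 (SE 0.12) and -1.27 (SE 0.17) in the authors' deposited table. Lrrc32 and Nrros encode related anchors of latent TGF-beta, used by regulatory T cells and platelets and by macrophages and microglia, and they diverged, at -1.03 (SE 0.11) and 2.12 (SE 0.28) in the authors' deposited table. The markers of macrophages and microglia, 20 of 20 listed higher, moved beside Nrros, and their part in its rise was not tested. Decorin, a proteoglycan that binds TGF-beta, rose most, with Dcn at 2.87 (SE 0.16), and the BMP co-receptor gene Rgmb rose by 0.66 (SE 0.10) in the authors' deposited table. Dcn is also on the fibroblast marker list.

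Wnt ligands were lower in 6 and higher in 3 of the 9 listed genes. Wnt7a and Wnt7b, a closely related pair that signals through beta-catenin and is known for its action on brain blood vessels, stood together on the lower side. Wnt7a had implied means of 270 in Spp1 KO and 564 in wild type (log2 fold change -1.07, SE 0.17), and Wnt7b had 220.0 in Spp1 KO and 385 in wild type (-0.81, SE 0.23), from the authors' deposited table. Wnt5b, which mostly acts without beta-catenin, stood at 410 in Spp1 KO and 673 in wild type, with -0.72 (SE 0.22) in the authors' deposited table. Wnt2 and Wnt11 stood at -0.98 (SE 0.30) and -1.10 (SE 0.45) in the authors' deposited table, and Wnt11 had the largest adjusted p of the members at 0.0479. Wnt10b was lower at -4.60 (SE 1.43) in the authors' deposited table, from implied means of 0.336 in Spp1 KO and 8.13 in wild type, so the size of its fold rests on counts near 0.

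On the higher side, Wnt4 had implied means of 275 in Spp1 KO and 98.9 in wild type, a 2.79-fold rise (95% interval 1.96 to 3.96) worked out from the authors' deposited table. Wnt2b stood at 81.9 in Spp1 KO and 38.8 in wild type, with a log2 fold change of 1.08 (SE 0.29) in the authors' deposited table, and Wnt16 at 17.5 in Spp1 KO and 3.33 in wild type, with 2.39 (SE 0.76). The higher ligands were less abundant than Wnt5b in both genotypes per kilobase of exon: Wnt4 reached 65.7 normalized counts per kilobase in Spp1 KO and 23.6 in wild type, where Wnt5b had 154 in Spp1 KO and 254 in wild type, as implied by the authors' deposited table. This did not hold against every lower ligand. In Spp1 KO, Wnt4 stood below Wnt7a (85.0) but above Wnt7b (44.9), Wnt2 (27.9), Wnt11 (5.07) and Wnt10b (0.0988) per kilobase, as implied by the authors' deposited table.

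Frizzled receptors, which bind Wnt through a cysteine-rich domain, were lower in 3 and higher in 2 of 5 listed genes. Fzd10 had implied means of 1739 in Spp1 KO and 520 in wild type, a 3.34-fold rise (95% interval 2.59 to 4.31) in the authors' deposited table. Fzd3, known for axon guidance and planar polarity, stood at 8382 in Spp1 KO and 4473 in wild type, a 1.87-fold rise (1.35 to 2.60) by the authors' deposited table. Fzd5 and Fzd8, a related pair with roles in eye development, were both lower: Fzd5 stood at 635 in Spp1 KO and 1497 in wild type, and Fzd8 at 1113 in Spp1 KO and 1693 in wild type. Their log2 fold changes were -1.24 (SE 0.14) and -0.61 (SE 0.13), and Fzd9 stood at -1.07 (SE 0.36), in the authors' deposited table. Of 15 markers of retinal progenitors and Müller glia 10 were listed, 9 of them lower beside these genes, and the part of these markers was not tested.

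**Figure D2:**
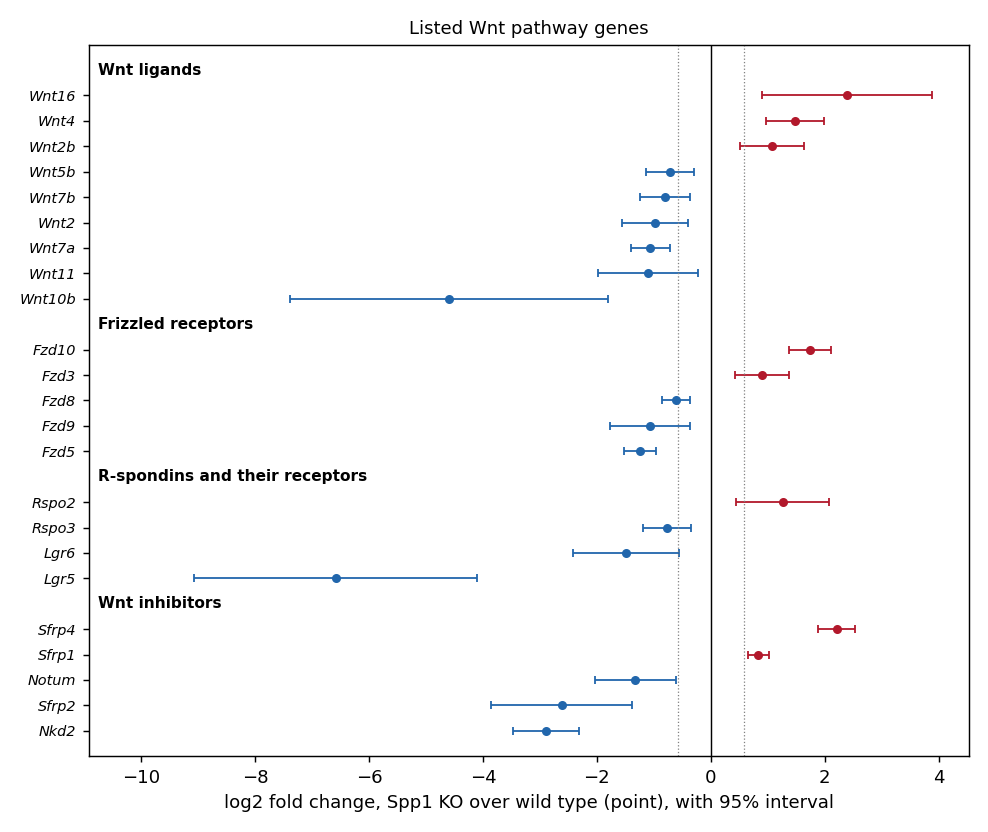
Log2 fold change of Spp1 KO over wild type for the 23 listed Wnt pathway genes by role. Points are the authors' deposited values with 95% intervals, and dotted lines mark 0.58 in either direction; every role holds genes on both sides of 0, and Lgr5 and Wnt10b have the widest intervals.

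R-spondins and Lgr receptors amplify Wnt signals. Lgr5, a marker of several epithelial stem cells, had implied means of 0.201 in Spp1 KO and 19.3 in wild type, with a log2 fold change of -6.58 (SE 1.27) in the authors' deposited table, the largest fall of the members; with the knockout near 0, its fold had an interval of 17.1 to 538. Lgr6 stood at 50.4 in Spp1 KO and 141 in wild type, with -1.48 (SE 0.47) in the authors' deposited table. The ligand genes diverged, with Rspo2 at 1.27 (SE 0.42) and Rspo3 at -0.77 (SE 0.22) in the authors' deposited table.

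Of the 5 listed inhibitors of Wnt signalling, 2 were higher and 3 lower in Spp1 KO cultures. Sfrp4, a secreted frizzled-related protein gene, had implied means of 2971 in Spp1 KO and 641 in wild type, a 4.64-fold rise (95% interval 3.70 to 5.82) by the authors' deposited table. Its relative Sfrp1 stood at 4311 in Spp1 KO and 2413 in wild type, a 1.79-fold rise (1.58 to 2.02) from the authors' deposited table. Sfrp2 was lower, with 4.23 in Spp1 KO and 26.0 in wild type and a log2 fold change of -2.62 (SE 0.63) in the authors' deposited table. Nkd2, a Naked cuticle protein that binds Dishevelled, stood at 86.6 in Spp1 KO and 644 in wild type, a 7.43-fold lower level (95% interval 4.95 to 11.2) in the authors' deposited table. Notum, which removes the lipid from Wnt and is itself induced by beta-catenin signalling in several tissues, stood at 43.9 in Spp1 KO and 110 in wild type, with -1.32 (SE 0.36) in the authors' deposited table.

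From a list of 65 further Wnt genes, 14 were listed, 4 of them higher and 10 lower (median log2 fold change -0.72). Beside these counts, 21.8% of the estimated tested genes were listed, and 45.1% of all listed genes were lower. Ccnd1 and Myc, genes of proliferation that beta-catenin is known to induce in some cells, stood at -0.82 (SE 0.10) and -0.77 (SE 0.16) in the authors' deposited table. Of 27 cell cycle markers, 19 were listed and all 19 were lower beside them, and their part was not tested. The glypican gene Gpc4 and Cthrc1, a secreted Wnt cofactor, stood at -0.85 (SE 0.11) and -0.99 (SE 0.14), and Lypd6, a membrane-anchored enhancer of Wnt signalling, at -1.21 (SE 0.21), in the authors' deposited table. Ctnnbip1, whose product keeps beta-catenin from TCF factors, and the co-receptor gene Ptk7 stood at -0.69 (SE 0.12) and -0.61 (SE 0.13) in the authors' deposited table. Porcn, the acyltransferase that lipid-modifies every Wnt, rose by 0.95 (SE 0.17), and Dact1, a Dishevelled-binding regulator, and Tnfrsf19 by 1.09 (SE 0.20) and 0.66 (SE 0.12), in the authors' deposited table.

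**Figure D3:**
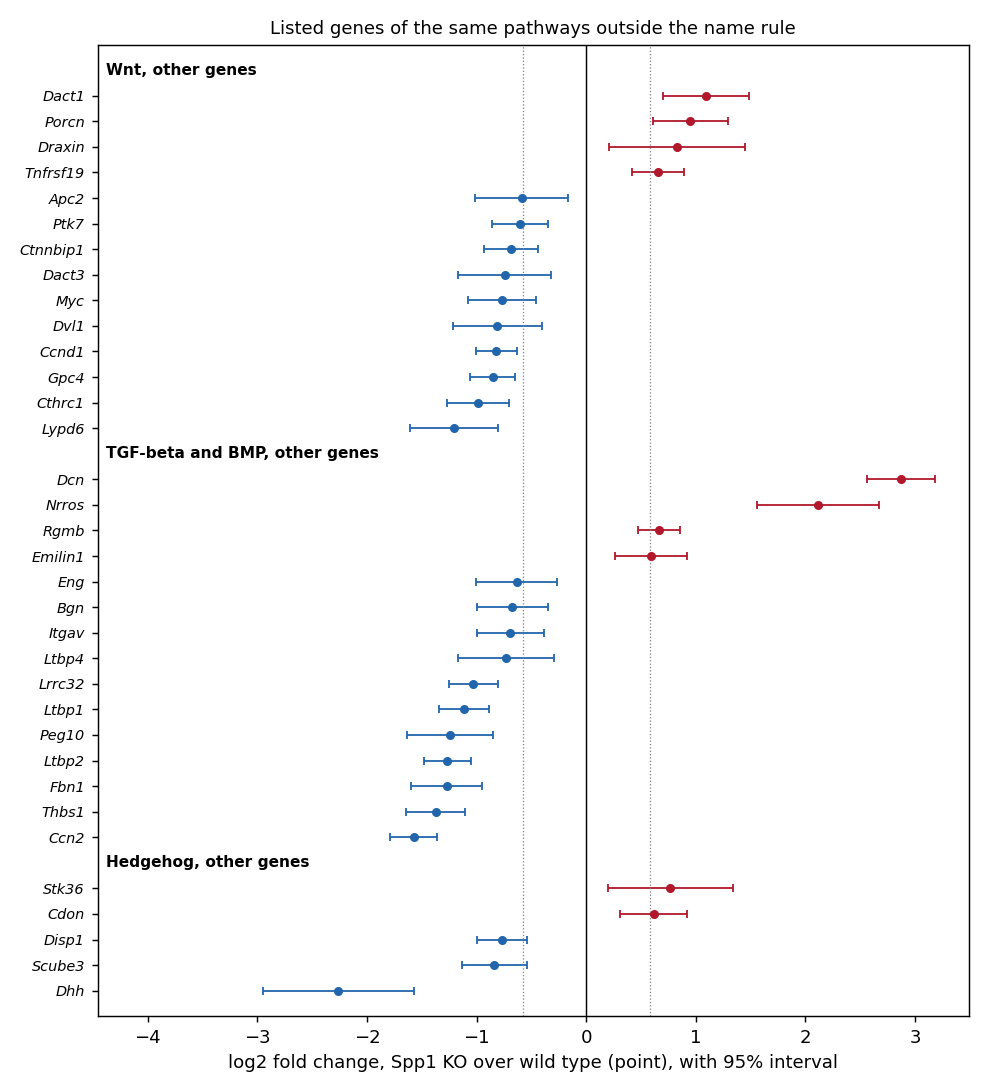
Log2 fold change of Spp1 KO over wild type for 34 listed genes of the same pathways that the name rule does not cover, by pathway. Points are the authors' deposited values with 95% intervals; 24 genes lie to the left of 0 (lower in Spp1 KO) and 10 to the right, with Dcn and Nrros farthest right.

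Sonic hedgehog was lower in Spp1 KO cultures. Shh (chromosome 5, 28456815 to 28467256, minus strand, GRCm38) had implied means of 367 in Spp1 KO and 2421 in wild type, a 6.59-fold lower level (95% interval 4.99 to 8.71) in the authors' deposited table. Per kilobase of exon it was the highest of all 53 listed members in wild type, at 850 normalized counts, and stood at 129 in Spp1 KO, as implied by the authors' deposited table. Of 33 further Hedgehog genes, 5 were listed, 2 higher and 3 lower, where 21.8% of the estimated tested genes were listed and 45.1% of all listed genes were lower. Dhh, the desert hedgehog ligand of Schwann cells, fell by 2.26 (SE 0.35), and Disp1 and Scube3, which encode a protein that releases Hedgehog ligands and a secreted protein of a family that aids release, fell by 0.77 (SE 0.12) and 0.84 (SE 0.15), in the authors' deposited table. The co-receptor gene Cdon and the kinase gene Stk36 rose by 0.62 (SE 0.15) and 0.77 (SE 0.29) in the authors' deposited table. Neuron markers (10 of 18 listed, all 10 lower) and Schwann cell and neural crest markers (13 of 16 listed, 10 lower) moved beside Shh and Dhh, and their part was not tested.

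The 4 genes that matched by name only were Tgfb1i1, a focal adhesion adaptor, Bmp2k, a kinase of endocytosis, Ptchd1, a Patched-domain protein, and Fstl5, a follistatin-like protein. Their log2 fold changes were -0.76 (SE 0.10), 0.93 (SE 0.16), -1.94 (SE 0.35) and -2.36 (SE 0.79) in the authors' deposited table.

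**Figure D4:**
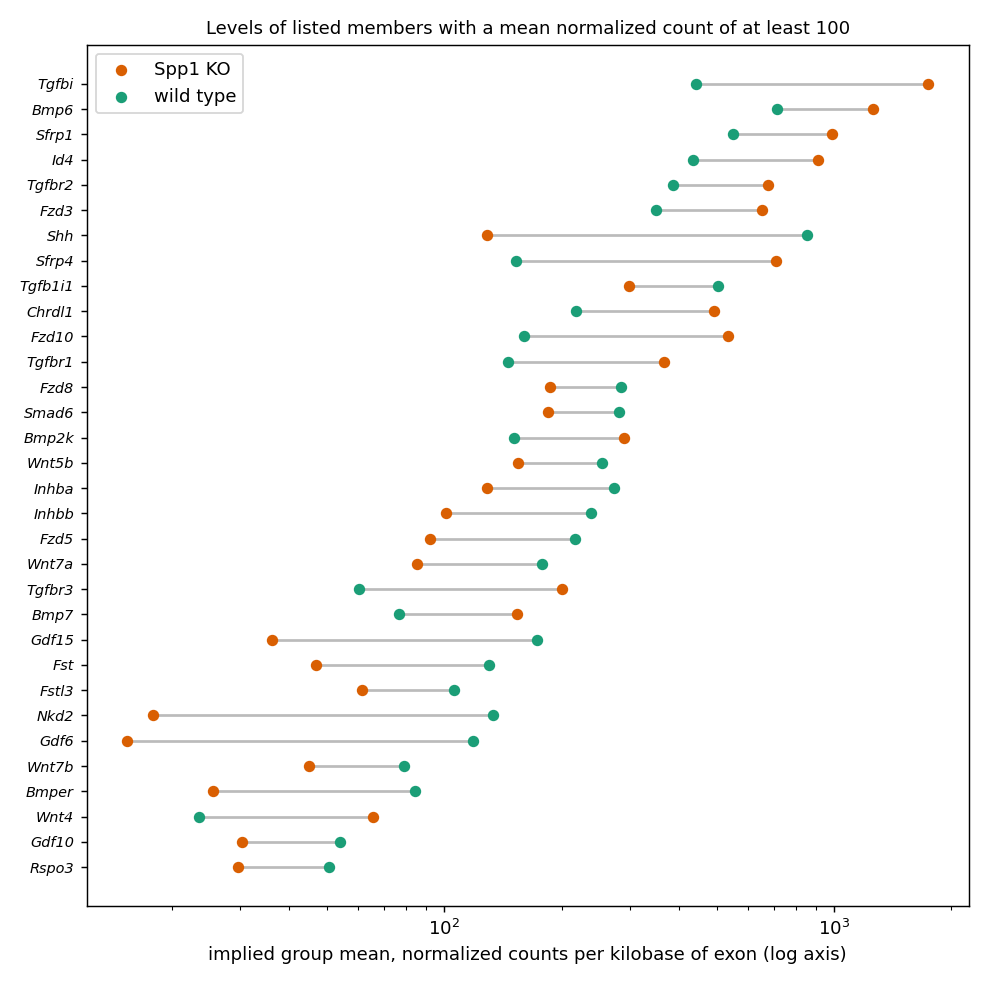
Implied group means per kilobase of exon (log axis) for the 32 listed members whose mean normalized count reached 100, Spp1 KO in orange and wild type in green, joined by a line and ordered by the mean over both. Shh had the highest wild-type level (850) and Tgfbi the highest Spp1 KO level (1746), from the authors' deposited table; the table holds no per-sample values, so no error is drawn.

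Members were also ordered by their level per kilobase of exon. In Spp1 KO cultures the order began with Tgfbi at 1746, Bmp6 at 1259, Sfrp1 at 986 and Id4 at 911 normalized counts per kilobase, as implied by the authors' deposited table. In wild-type cultures it began with Shh at 850, Bmp6 at 716, Sfrp1 at 552 and Tgfb1i1 at 504 normalized counts per kilobase, as implied by the authors' deposited table. Bmp6 and Sfrp1 held the second and the third place in both genotypes. Without per-sample values, neighbours in these orders could not be tested against each other. Precision followed abundance: the median SE was 0.18 for the 32 members whose mean normalized count reached 100 and 0.46 for the 21 below it.

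Marker genes of several cell types differed beside these results. Of 22 macrophage and microglia markers 20 were listed and all 20 were higher, with summed implied means of 194069 in Spp1 KO and 38713 in wild type. Markers of meningeal and other fibroblasts were higher in 15 and lower in 4 listed genes, with sums of 120942 in Spp1 KO and 52846 in wild type. Oligodendrocyte lineage markers were lower in 14 of 14 listed genes (7022 in Spp1 KO and 26974 in wild type) and neuron markers in 10 of 10 (8537 in Spp1 KO and 18911 in wild type). Schwann cell and neural crest markers were lower in 10 and higher in 3 listed genes (4643 in Spp1 KO and 6731 in wild type), retinal progenitor and Müller glia markers lower in 9 and higher in 1 (8747 in Spp1 KO and 12899 in wild type). Pericyte and smooth muscle markers were lower in 4 of 4 listed genes, endothelial markers higher in 2 and lower in 3, and pigment epithelium and melanocyte markers higher in 3 and lower in 1. The full lists held 25 fibroblast, 16 oligodendrocyte lineage, 18 neuron, 16 Schwann cell and neural crest, and 15 retinal progenitor and Müller glia markers. They held 12 pericyte and smooth muscle, 13 endothelial and 11 pigment markers, and those not listed have no value here. Of all listed genes, 45.1% were lower. The sums cover listed genes only, lean on abundant ones and do not measure cell numbers. Lyz2 alone gave 79440 of the macrophage sum in Spp1 KO and 14666 in wild type. Col3a1 gave 56076 of the fibroblast sum in Spp1 KO and 31255 in wild type. Sox10 and Cspg4 each stood on 2 of these lists. Of 19 astrocyte markers 8 were listed, 5 higher and 3 lower. The 2 with the smallest adjusted p, Fabp7 and S100b, were lower. Their log2 fold changes were -1.23 (SE 0.10) and -1.82 (SE 0.15) in the authors' deposited table. Gfap was higher and abundant in both genotypes, with implied means of 91923 in Spp1 KO and 58314 in wild type from the authors' deposited table. The Y-linked genes Ddx3y, Eif2s3y, Uty and Kdm5d were higher in Spp1 KO cultures by 5.91 to 13.26 on the log2 scale in the authors' deposited table, so sex and genotype cannot be told apart. In bulk RNA, fewer cells of a type and less RNA per cell cannot be told apart, and the part of these markers in the members' differences was not tested.

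Members near Spp1 share its stretch of chromosome 5. Tgfbr3 (107106570 to 107289629, minus strand, GRCm38) lies 2.67 Mb beyond Spp1, and Bmp3 and Bmp2k lie 5.55 and 7.34 Mb before it. All 3 were higher in Spp1 KO cultures, as were 23 of the 34 listed genes within 10 Mb of Spp1 (67.6%), beside 54.9% of listed genes elsewhere. The higher genes include Gbp4, Gbp6, Gbp8, Gbp9, Gbp10 and Gbp11, which lie together 0.57 to 0.88 Mb beyond Spp1. The share therefore counts 1 gene cluster several times. The labels do not say how much 129S6 sequence remains around the targeted allele. For the 3 members and the other listed genes near Spp1, flanking sequence and the Spp1 deletion cannot be told apart. Tgfbr1 and Tgfbr2 lie on chromosomes 4 and 9 and were also higher, and the source of the Tgfbr3 rise was not tested.

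**Figure D5:**
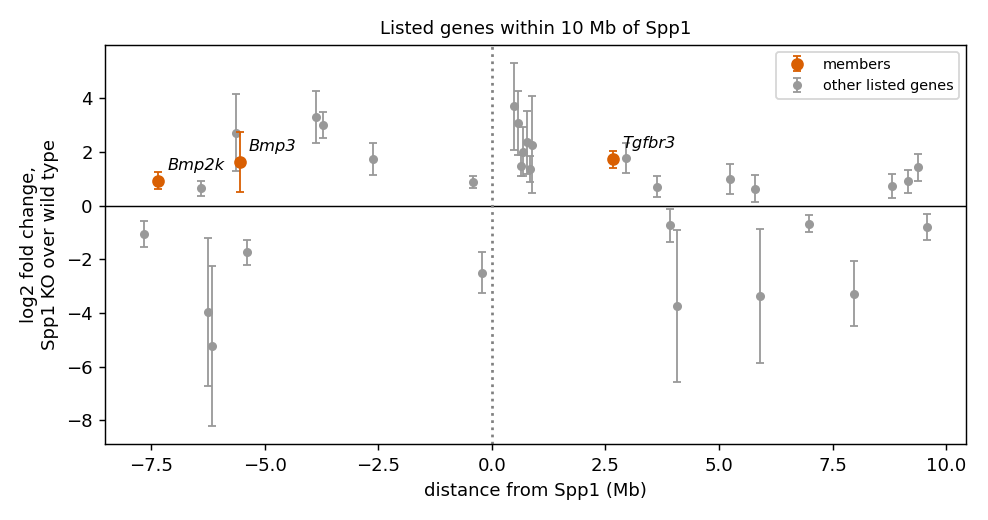
Log2 fold change of Spp1 KO over wild type (vertical axis) against distance from Spp1 in megabases (horizontal axis) for the 34 listed genes within 10 Mb, with 95% intervals. The members Bmp2k, Bmp3 and Tgfbr3 (orange) lie above 0; Spp1 itself is not drawn.

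Exons of 17 members overlap exons of another annotated gene, for 15 of them only on the opposite strand, and the counting is not stated to use strand. Bmp6 overlaps Txndc5, Fstl3 overlaps Prss57 and Bmp2k overlaps Paqr3 in this way, and Shh, Fst and Id4 overlap antisense transcripts. On the same strand, Tgfbr3 overlaps Gm43422 and Tgfbr3l overlaps the protein-coding Gm49320, where counting by strand would not separate the reads. None of these partners was in the authors' deposited table.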

How the data were processed

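Per the labels' protocols, total RNA was purified with a column kit and libraries were prepared at a sequencing company. Tools named in the submitters' processing notes are DESeq2 1.30.1, STAR 2.7 and CASAVA 1.8, with the build GRCm38 and no role or order; the counting step and annotation: not given in the sources used here. Per the file headers, the authors deposited for each of 3624 genes the normalized count averaged over all samples (a signal that is never negative), a log2 fold change and its standard error, a Wald statistic (a score, equal to their ratio), and the p-value before and after adjustment. Per-sample values were not used here, so no test was run; each member's call is the authors' own.

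Members were matched by symbol, annotated with GENCODE M21 (53 of 53 matched) and grouped by known role. Implied means assume groups of equal size, and this step was tested on simulated data. Per-kilobase values divide by the union of annotated exons. Intervals at 95% use the normal quantile and the deposited standard error. The number of genes tested was estimated from how adjusted and raw p differ for the 20 smallest p-values above 0. Members and lists were chosen with earlier results of these data known; by rule every member is named, with up to 10 further listed genes per pathway of smallest adjusted p, but some genes are counted and not reported here by name. Promoter windows came from RefSeq. Alternatives changed the limits on count, fold, adjusted p and interval, and the symbols kept. Python 3.11.15 with pandas 2.3.3, numpy 2.4.6, scipy 1.17.1 and matplotlib 3.10.9 was used.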

Additional observations from a re-analysis of the deposited data

How the results depend on the processing

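Among members whose mean normalized count reached 100, 14 were higher and 18 lower in Spp1 KO cultures, beside 45.4% lower of all listed genes so limited. With a 95% interval beyond 0.58 in either direction 14 were higher and 19 lower, beside 38.5% lower of all listed genes. The median log2 fold change of the members was -1.09 when changes under 1 on the log2 scale were left out and -1.23 with an interval beyond 0.58, both by construction, since smaller changes were dropped. The sign turned in 1 alternative: the mean weighted by the inverse squared standard error was 0.13, and the cause was not tested. Further pathway genes numbered 3 higher and 10 lower without changes under 1 on the log2 scale, and 4 higher and 13 lower with an interval beyond 0.58. Of all listed genes, 38.8% and 38.5% were lower under these limits. In all 7 limits and exclusions more members were lower than higher, from 56.2% to 62.0% lower, beside 38.5% to 45.4% of all listed genes. These settings keep overlapping subsets of the same 53 members, so they are not separate results. Leaving out 4 genes matched by name only, or genes within 10 Mb of Spp1, were chosen after seeing the data and moved no count by over 1.5 times. No paired analysis was possible because the table holds 1 value per gene and none per sample, and leaving out each replicate was not run for the same reason. Depth per sample is unknown. Folds of Lgr5, Wnt10b and Acvr1c, near 0 in Spp1 KO, are the least certain, with the largest standard errors of the members (1.27, 1.43 and 1.76).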
